A study of Mus musculus with 12 samples.

Results

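Scavenger receptors and receptors for apoptotic cells were followed in RNA of lymph node dendritic cells, as a set of 9 genes: Marco, Msr1, Mrc1, Cd36, Axl, Mertk, Trem2, Cd163 and Havcr2. The set was chosen by receptor function and because its leading gene, Marco, stood higher on knockout arrays, so the genotype difference chose the genes and is given here as a description without a test. The members were read by 17 of 45101 probe sets, those whose only annotated gene is a member, and they make up 9 of 18193 named genes. The cells were primary dendritic cells isolated from lymph nodes of C57BL/6 mice and cultured. By label they were wild type (WT) or p38a knockout (KO). p38α is a stress-activated kinase encoded by Mapk14. The cultures received Pam3CSK4, a synthetic TLR2 ligand, at a labelled dose of 1 mg/ml, and RNA was taken at 0, 2 and 4 h. The 12 arrays comprised 2 per genotype and time, named A and B. The sources used here do not say how the deletion was made or in which cells, nor whether arrays came from separate animals or cultures. The p-values therefore reflect only how far these arrays spread, which may be technical. There were no arrays at 2 or 4 h without the ligand, so its effect cannot be told apart from time in culture.

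Scavenger receptors bind modified lipoproteins, microbial surfaces and debris and carry them into the cell. Receptors for apoptotic cells recognise phosphatidylserine or other lipids on dying cells, directly or through bridging proteins. Both groups are best known from macrophages, and several members are also found on dendritic cell subsets.

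The arrays differed in overall brightness, with trimmed means from 66.6 to 119, and were quantile-normalised. Both arrays of each group correlated at r = 0.987 to 0.99 over the 12791 genes tested. The best correlation of each array with an array of another group was nearly as high (0.984 to 0.989). Genes are no independent replicates. The probe set standing for Mapk14 was not lower on KO arrays (8.22 ± 0.28 on WT and 8.37 ± 0.00 on KO arrays at 0 h, log2(signal + 16), SD, n = 2). Averaged over the times it was higher by 0.31 ± 0.08 (SE, adjusted p = 0.014), a call lost on the deposited scale. Because the position of the deleted part is not stated in the sources at hand, this probe set cannot check the labels. Genotype below means the label. All 12 dendritic cell markers examined, such as Flt3, Zbtb46, H2-Aa and Ccr7, were above the filter on mean level, which is no detection call. Their summed signal was similar on WT (32614 to 33608) and KO arrays (31900 to 34029). A sum follows its brightest genes, whose signals quantile normalisation draws together, so it cannot show that the single markers were alike. Averaged over the times, 3 of the 12 were called higher on KO arrays and 1 lower. Of all tested genes 6.21% were higher and 4.28% lower.

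Of the 9 members, 8 had a mean level above the filter, which was set at the 40th percentile of all probe sets, 4.73 as log2(signal + 16) or a signal of 10.6. Trem2 (4.79) lay just inside the filter and Cd163 (4.32) just outside it. The difference KO minus WT averaged over the times was above 0 for 8 of 9 members and ran from 1.08 for Marco to 0.03 for Cd36, with Cd163 at -0.27. In RNA of a bulk culture, more cells of a type and more RNA per cell cannot be told apart. On the deposited scale that of Cd36 turned to -0.12. The wording of the choice, higher in knockout arrays, was thus not met by Cd163 and hardly by Cd36. Without overlap between the arrays, KO stood above WT for 6 of the 8 at 0 h, 5 at 2 h and 3 at 4 h. The same held for 27.5%, 26.4% and 24.6% of all tested genes at these times, and nothing is read from the comparison because the rule used this contrast.

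**Figure D1:**
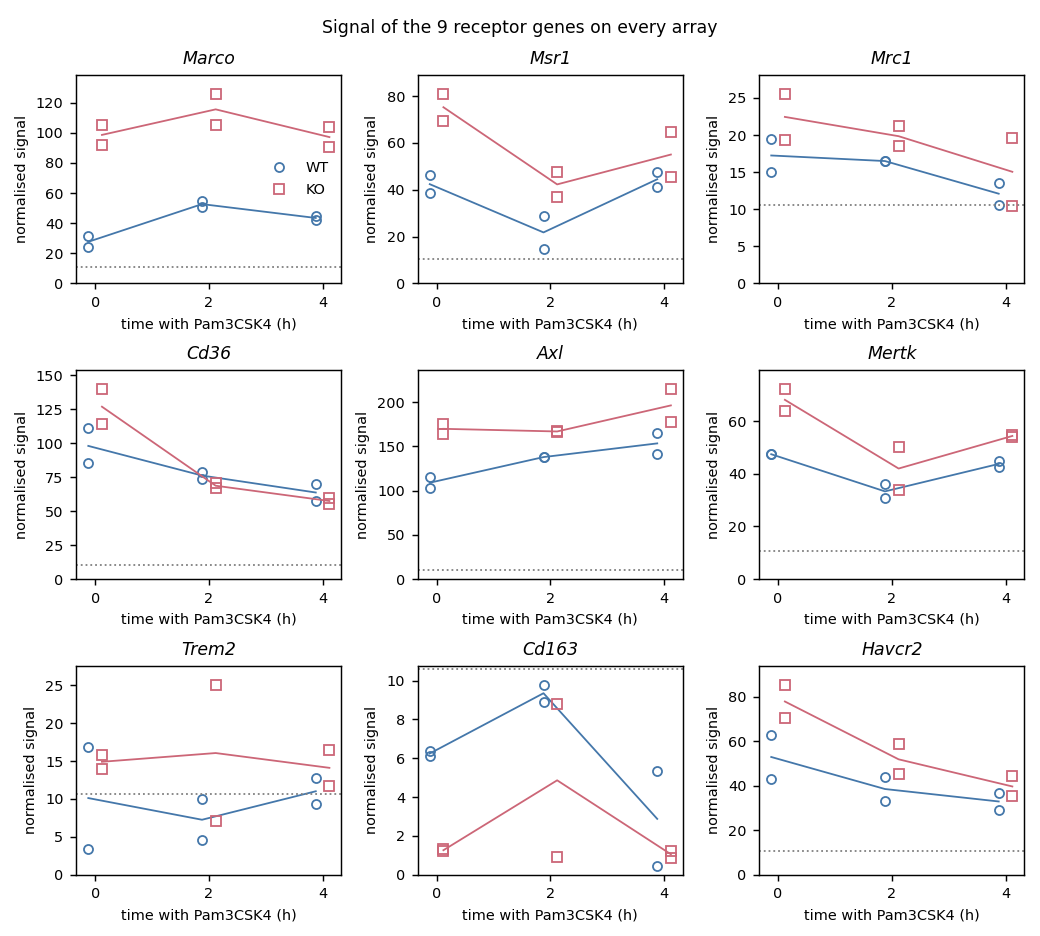
Quantile-normalised signal (linear scale from 0) of the 9 receptor genes on each of the 12 arrays against time with Pam3CSK4 in hours. Circles are WT arrays, squares KO arrays, lines join the means of 2 arrays, and the dotted line is the filter at a signal of 10.6. Marco is separated between genotypes on all arrays, Cd36 and Havcr2 fall with time in both, and Cd163 stays under the filter.

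Marco, a collagenous scavenger receptor that binds bacteria and particles, showed the widest gap between the genotypes. On WT arrays its signal was 31.4 and 23.9 at 0 h, then 50.7 and 54.6 (2 h), then 42.2 and 44.7 (4 h). The KO arrays gave 105 and 92.1, then 126 and 105, then 104 and 90.2. Every KO array was above every WT array, which held for 0.868% of tested genes and for no other member's leading probe set. The ratio of mean signals was 3.57 at 0 h, 2.19 at 2 h and 2.23 at 4 h. On the log2(signal + 16) scale the difference was 1.40 ± 0.15 (SE), 0.93 and 0.92. A second Marco probe set was dim, from 1.58 to 15.6 on WT and from 12.2 to 29.5 on KO arrays, and its averaged difference was 0.77.

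The change of Marco with time was not used in the choice and could be tested. Averaged over the genotypes Marco was higher at 2 h than at 0 h by 0.43 ± 0.10 (SE, limma, adjusted p = 0.0052). At 4 h the change was 0.21 ± 0.10 and did not pass (adjusted p = 0.15). In WT cells it rose by 0.66 ± 0.15 at 2 h (adjusted p = 0.0044). This call did not hold on the deposited scale (0.35, adjusted p = 0.29), for averaged probe sets (0.47, adjusted p = 0.088) or with WT 0 h B left out (adjusted p = 0.056). In KO cells the change was 0.19 ± 0.15 (adjusted p = 0.41). The difference of these responses was -0.47 (95% interval -0.91 to -0.02, adjusted p = 0.82 over all genes), so the genotypes were not shown to respond differently. The averaged 2 h rise was lost in 2 of 24 alternatives and held when arrays were scaled by their trimmed means (0.36). On the deposited scale, where arrays are not brought to a common brightness, it was 0.04 (adjusted p = 0.85). As the mean of both probe sets it was 0.28 (adjusted p = 0.12).

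The start of the Marco gene is shown with those of Axl, Cd36 and Havcr2, the members whose tested changes with time went up or stayed down at 4 h. Each is the 250 bases before the RefSeq start in GRCm38.p6, 5′ to 3′ on the gene's strand. The Marco window is chr1:120505025-120505274 (minus strand) and the Axl window chr7:25788734-25788983 (minus). The Cd36 window is chr5:17835897-17836146 (minus) and the Havcr2 window chr11:46454681-46454930 (plus). Capitals mark GAGGAA or its reverse complement, the core of the motif bound by the myeloid factor Spi1.
Marco: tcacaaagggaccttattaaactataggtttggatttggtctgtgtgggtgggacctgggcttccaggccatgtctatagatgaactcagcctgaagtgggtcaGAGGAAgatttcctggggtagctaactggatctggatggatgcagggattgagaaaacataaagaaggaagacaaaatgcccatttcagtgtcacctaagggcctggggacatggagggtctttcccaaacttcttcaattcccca
Axl: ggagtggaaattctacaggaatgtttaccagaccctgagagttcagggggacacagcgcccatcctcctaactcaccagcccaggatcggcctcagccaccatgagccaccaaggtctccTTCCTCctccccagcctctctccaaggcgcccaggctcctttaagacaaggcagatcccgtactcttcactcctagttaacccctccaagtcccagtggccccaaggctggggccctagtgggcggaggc
Cd36: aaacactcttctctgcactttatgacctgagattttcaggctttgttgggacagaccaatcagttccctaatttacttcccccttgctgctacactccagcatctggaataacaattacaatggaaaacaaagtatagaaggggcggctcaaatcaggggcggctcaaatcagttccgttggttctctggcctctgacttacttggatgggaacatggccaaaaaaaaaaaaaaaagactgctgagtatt
Havcr2: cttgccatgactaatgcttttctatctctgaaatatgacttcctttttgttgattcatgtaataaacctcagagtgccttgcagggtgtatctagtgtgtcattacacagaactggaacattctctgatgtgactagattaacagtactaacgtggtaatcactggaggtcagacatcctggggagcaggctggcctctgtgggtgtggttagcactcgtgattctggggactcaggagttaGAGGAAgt
GAGGAA on either strand occurred in 5 of 8 member windows in the table (Marco, Mrc1, Axl, Trem2 and Havcr2) and in 23.3% of 32851 windows of the same length. The longer form GAGGAAGT, which contains it, occurred in the Havcr2 window, ending 1 base before the start, and in 2.44% of all windows. A loose form of the AP-1 motif, TGANTCA with any middle base, was found in the Havcr2 and Trem2 windows and in 6.75% of all windows. The matches were TGATTCA in Havcr2 and TGAATCA in Trem2, so neither had the C or G in the middle of the usual AP-1 site. The MAF half-site TGCTGA was found in the Cd36 window and in 16.1% of all windows. The letters TTGCNNAA of C/EBP and CACGTG of the MITF family were in none of the 8 windows, against 9.56% and 6.02% of all windows. A match describes letters, not binding.

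Msr1, the class A receptor for modified lipoproteins, dipped at 2 h in both genotypes. Its brightest probe set read 46.2 and 38.6 (0 h), 28.9 and 14.7 (2 h) and 47.8 and 41.2 (4 h) on WT arrays. The KO values were 81.1 and 69.4, then 37.1 and 47.5, then 64.5 and 45.6. KO was above WT at 0 and 2 h without overlap, and the arrays overlapped at 4 h. Against 0 h the averaged change was -0.65 ± 0.14 at 2 h (SE, adjusted p = 0.0023) and -0.16 ± 0.14 at 4 h (adjusted p = 0.45). Leaving out WT 0 h A ended the 2 h call (-0.32, adjusted p = 0.082). From 2 to 4 h Msr1 rose by 0.49 (adjusted p = 0.021), a call lost without any 1 of 5 arrays (adjusted p up to 0.43): WT 0 h A, WT 2 h B, WT 4 h A, KO 2 h A or KO 4 h A. It was also lost with no filter (adjusted p = 0.052) and for averaged probe sets (0.22, adjusted p = 0.12).

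The 4 Msr1 probe sets all gave positive averaged differences between KO and WT, from 0.34 to 0.74. The one at 0.74 read from 23.4 to 36.4 on WT and from 46.9 to 77.1 on KO arrays, with no overlap at any time. At 2 h all 4 were lower than at 0 h by estimate, between -0.65 and -0.24, and 2 of them passed when all probe sets were tested (adjusted p = 0.0043 and 0.047). From 2 to 4 h the other 3 probe sets gave 0.14, 0.17 and 0.08, none past the threshold (adjusted p = 0.45, 0.50 and 0.79), so the later rise was called in 1 of 4.

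Cd36, a class B scavenger receptor that takes up oxidised lipoproteins, fatty acids and apoptotic cells, fell with time. Its signal on WT arrays was 111 and 85.2 (0 h), 78.9 and 73.6 (2 h) and 57.5 and 70.0 (4 h). KO arrays read 140 and 114, then 70.7 and 66.8, then 59.8 and 55.2. KO arrays were higher than WT at 0 h, lower at 2 h and overlapped WT at 4 h. Averaged over the genotypes Cd36 fell by 0.52 ± 0.10 at 2 h (adjusted p = 0.0012) and by 0.73 ± 0.10 at 4 h (SE, adjusted p = 5.8e-05). The 4 h call held under every alternative run, with adjusted p at most 0.00059.

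The KO response of Cd36 at 4 h was -0.95 and the WT response -0.51, both past the threshold (adjusted p = 0.00024 and 0.024), but the WT call ended when either WT 0 h A or WT 4 h A was left out (adjusted p reaching 0.24). The difference of the 4 h responses was -0.44 (95% interval -0.89 to 0.01, adjusted p = 0.82). A second Cd36 probe set also fell, by 0.39 at 2 h and 0.69 at 4 h (adjusted p = 0.038 and 0.00097 over all probe sets). Between genotypes this probe set gave -0.15 at 0 h, so the higher level on KO arrays at 0 h was seen in 1 of the 2 Cd36 probe sets above the filter. The third was below the filter.

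Mrc1, the mannose receptor, and Cd163, which takes up haemoglobin bound to haptoglobin, were dim. Mrc1 ran from 10.6 to 19.5 on WT and from 10.5 to 25.6 on KO arrays, and the genotypes overlapped at 0 and 4 h, with KO above WT at 2 h. Its averaged change was -0.06 ± 0.15 at 2 h (adjusted p = 0.80) and -0.28 ± 0.15 at 4 h (SE, adjusted p = 0.19). Cd163 read 6.39 and 6.10 (0 h), 8.91 and 9.80 (2 h) and 5.32 and 0.424 (4 h) on WT arrays. The KO arrays read 1.20 and 1.31, 8.81 and 0.914, and 1.22 and 0.872. All of these are below the filter level, so the lower KO values carry no order and Cd163 was not tested.

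Axl and Mertk, receptor tyrosine kinases that bind phosphatidylserine through Gas6 and protein S, differed in their time courses, with Axl higher at 4 h and Mertk lower at 2 h. Axl read 103 and 115 (0 h), 138 and 138 (2 h) and 165 and 142 (4 h) on WT arrays. Its KO signals were 164 and 176, then 166 and 168, then 215 and 178. KO was above WT at each time without overlap, as for 5.82% of tested genes, but the highest WT array at 4 h reached the lowest KO array at 0 h. The averaged change of Axl was 0.14 ± 0.08 at 2 h (adjusted p = 0.23), and at 4 h it rose by 0.31 ± 0.08 (SE, adjusted p = 0.0087). The 4 h call was lost without KO 4 h A (adjusted p = 0.053), on the deposited scale (0.12, adjusted p = 0.69) and as the mean of both probe sets (adjusted p = 0.13). The other Axl probe set was below the filter.

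Mertk read 47.5 and 47.5 (0 h), 36.0 and 30.7 (2 h) and 42.6 and 45.0 (4 h) on WT arrays. In KO cells it read 72.3 and 64.1, then 33.7 and 50.4, then 55.0 and 53.9. KO was above WT at 0 and 4 h and overlapped it at 2 h. Mertk fell by 0.46 ± 0.12 at 2 h (SE, adjusted p = 0.0063), a call that held under all alternatives and with any array left out (adjusted p at most 0.031). At 4 h its change was -0.17 ± 0.12 (adjusted p = 0.31). Tyro3, the third kinase of this family, gave 0.01 at 2 h and -0.30 at 4 h, and 0.05 for KO minus WT, none past the threshold (adjusted p = 0.96, 0.15 and 0.84), and its 2 h and genotype signs turned on the deposited scale.

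Trem2, a lipid-sensing receptor that signals through the adaptor Tyrobp, was near the filter. Its brighter probe set ran from 3.31 to 16.9 on WT and from 7.01 to 25.1 on KO arrays, with overlap at each time. The averaged changes were -0.07 ± 0.21 at 2 h and 0.03 ± 0.21 at 4 h (SE, adjusted p = 0.85 and 0.94), with 95% intervals of -0.52 to 0.38 and -0.42 to 0.48. Without KO 2 h A the 2 h difference between genotypes went from 0.41 to 0. Trem2 lies on chromosome 17, as does Mapk14.

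Havcr2, also known as TIM3, an inhibitory receptor that binds phosphatidylserine and galectin, fell over the time course. It read 62.7 and 43.0 (0 h), 43.9 and 33.0 (2 h) and 36.6 and 29.1 (4 h) on WT arrays. KO arrays gave 85.4 and 70.2, then 58.6 and 45.0, then 44.1 and 35.1. KO was above WT at 0 and 2 h, with the 2 h arrays close (45.0 against 43.9), and overlapped it at 4 h. Averaged over the genotypes Havcr2 fell by 0.62 ± 0.13 at 4 h (SE, adjusted p = 0.0022), with adjusted p at most 0.015 under the alternatives. At 2 h it fell by 0.40 ± 0.13 (adjusted p = 0.032). The 2 h call was lost with no filter (adjusted p = 0.071) and without WT 0 h A, WT 2 h B, KO 0 h A or KO 2 h B (adjusted p up to 0.15).

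**Figure D2:**
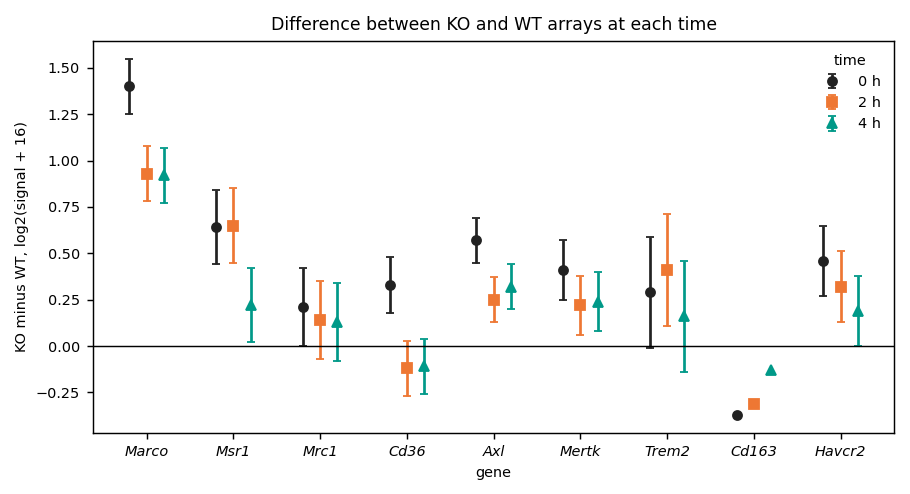
KO minus WT on the log2(signal + 16) scale for each receptor gene at 0, 2 and 4 h, as differences of the means of 2 arrays. Bars are standard errors from the limma fit, and Cd163, below the filter, has none. Marco is highest at each time (1.40, 0.93 and 0.92), Cd36 changes sign between 0 and 2 h, and Cd163 lies below 0.

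Counted over the 8 tested members, 1 was higher and 4 were lower at 2 h than at 0 h, averaged over the genotypes (limma, adjusted p below 0.05). Of all tested genes 11.9% were higher and 19.4% lower. The median change of the members was -0.23, and that of all genes was -0.05. At 4 h 1 member was higher (Axl) and 2 were lower (Cd36 and Havcr2), against 11.8% higher and 16.7% lower among all genes. The 4 h lower share of the members was thus close to the background. From 2 to 4 h Msr1 was the 1 member called, upwards, where 11.7% of all genes were higher and 10.9% lower. On the deposited scale the all-gene counts at 2 h went from 1519 higher and 2487 lower to 379 and 5966, with a median shift of -0.37. At 4 h they went from 1511 and 2140 to 438 and 1882, with a median shift of -0.17.

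Within WT cells Marco was higher at 2 and 4 h, Axl was higher at 4 h, Msr1 was lower at 2 h and Cd36 lower at 4 h. In WT cells 8.44% of the tested genes rose and 11.5% fell at 2 h, while 8.31% rose and 9.91% fell at 4 h. Within KO cells Msr1, Cd36 and Mertk were lower at 2 h and Cd36 and Havcr2 at 4 h. There 7.85% of the tested genes rose and 11.7% fell at 2 h, while 7.24% rose and 10.9% fell at 4 h. Several of these within-genotype calls rested on single arrays. The WT call of Marco at 4 h (0.45, adjusted p = 0.044) was lost in 16 of 24 alternatives, among them 9 of the 12 with 1 array left out, all but WT 0 h A, KO 2 h A and KO 2 h B (adjusted p reaching 0.28). That of Msr1 at 2 h (-0.65, adjusted p = 0.031) was lost in 8 of 24, among them without WT 0 h A, WT 0 h B, WT 2 h B or WT 4 h A, where it reached an adjusted p of 0.41. The KO call of Mertk at 2 h (-0.55, adjusted p = 0.026) was lost without KO 0 h A, KO 0 h B or KO 2 h A (adjusted p up to 0.23). The KO call of Msr1 at 2 h (-0.65, adjusted p = 0.033) was lost in 10 of 24 alternatives, among them without any 1 of the KO arrays at 0 or 2 h, WT 0 h A or WT 4 h A, with values reaching an adjusted p of 0.19. That of Havcr2 at 4 h (-0.76, adjusted p = 0.010) was lost without KO 0 h A or KO 4 h B (adjusted p up to 0.097). The WT call of Axl at 4 h (0.44, adjusted p = 0.015) ended when either WT 0 h A or WT 4 h A was left out (adjusted p reaching 0.15). The KO call of Cd36 at 2 h (-0.75, adjusted p = 0.002) was lost for averaged probe sets and for probe sets without name suffixes (adjusted p up to 0.36). No member's response differed between the genotypes at 2 or 4 h in limma after adjustment. At an unadjusted p below 0.05 the difference passed for 1 of 8 members (Marco) at each time, and for 754 (2 h) and 776 (4 h) of the 12791 genes. After adjustment 0.0313% and 0.0469% of all genes were called.

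**Figure D3:**
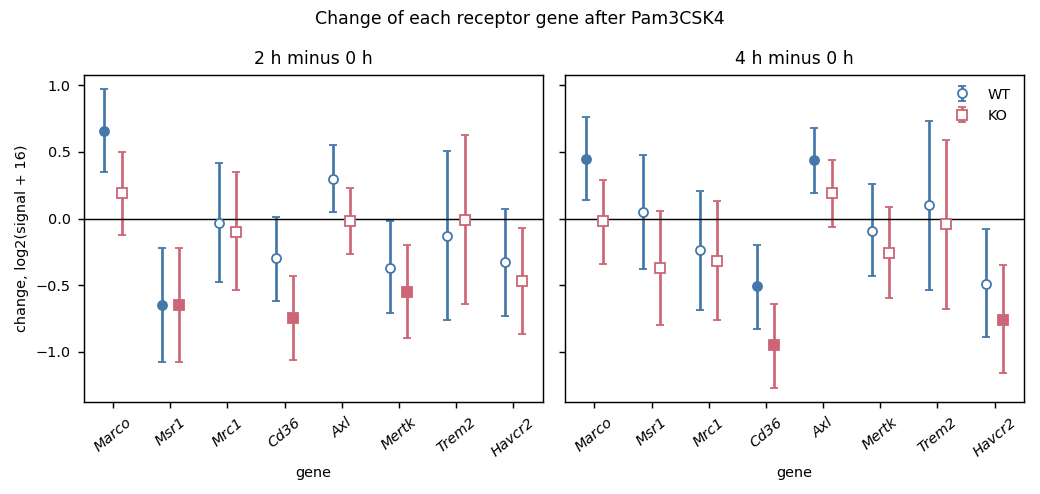
Change from 0 h at 2 h (left) and 4 h (right) on the log2(signal + 16) scale for the 8 tested receptor genes. Circles are WT and squares KO, bars are 95% intervals from the limma fit, and filled symbols passed adjusted p below 0.05. Cd36 is lower in both genotypes at 4 h (-0.51 in WT and -0.95 in KO cells), whereas Marco and Axl are at or above 0 except for small negative KO estimates (-0.02 each).

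Of 18 other scavenger receptors listed, 14 were tested. At 2 h 1 was higher and 5 lower (1 and 10 on the deposited scale), with a median of -0.23. At 4 h 1 was higher and 7 lower, with a median of -0.31. Of all tested genes 11.9% were higher and 19.4% lower at 2 h, and 11.8% and 16.7% at 4 h. Cxcl16, which also acts as a chemokine, fell by 0.84 and Clec7a, a receptor for fungal glucans, by 0.69 at 4 h, while the lipopolysaccharide co-receptor Cd14 rose by 0.98. In the averaged difference KO minus WT, 1 was higher (Cd68, 0.43 ± 0.06) and 1 lower (Scara3, -0.61 ± 0.14). Cd68 was not called on the deposited scale (0.21), and there 0 of the list were higher. Of all tested genes 6.21% were higher and 4.28% lower in that comparison (794 and 548 genes, or 49 and 488 on the deposited scale, where the median of all genes was -0.12).

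Among 13 other receptors for apoptotic cells, 4 were higher and 2 lower at 2 h and 2 higher and 5 lower at 4 h. With 1 array left out the 2 h counts ranged from 2 to 4 higher and 2 to 3 lower, and the 4 h counts from 1 to 2 higher and 3 to 5 lower. The drops came with several different arrays of either genotype. On the deposited scale 1 was higher and 5 lower at 2 h, and 0 higher and 4 lower at 4 h, so the balance at 2 h turned. The shares over all tested genes were 11.9% higher with 19.4% lower at 2 h, and 11.8% with 16.7% at 4 h. The integrin subunit Itgav rose by 0.71 at 2 h and by 0.42 at 4 h, the latter not called on the deposited scale (0.30). Timd4, a phosphatidylserine receptor, fell by 0.55 at 4 h and Cd300lf, a lipid receptor, by 0.71. Between genotypes Cd300lb (0.63 ± 0.13, adjusted p = 0.0061) and Cd300lf (0.38 ± 0.11, adjusted p = 0.038) were higher on KO arrays, but Cd300lf was not called on the deposited scale (0.21). The TIM family members Havcr1 (-0.43 ± 0.08) and Timd4 (-0.40 ± 0.10) were lower there.

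Ligands and bridging proteins were lower at 4 h in 10 of 15 tested cases and higher in 0, where 16.7% of all genes were lower and 11.8% higher. At an unadjusted p below 0.05, 12 of the 15 passed, as did 4772 of the 12791 genes. Ceacam1 fell by 0.68, the matrix protein Thbs1, which binds Cd36, by 0.66, Apoe by 0.53 and Mfge8 by 0.46. At 2 h Thbs1 had been higher by 0.52, a call lost on the deposited scale (0.18). The kinase ligands Gas6 and Pros1 gave -0.33 and -0.16 at 4 h (adjusted p = 0.10 and 0.43). Between genotypes 6 were higher and 1 lower on KO arrays (4 and 1 on the deposited scale), against 6.21% and 4.28% of all tested genes. C1qa, C1qb and C1qc are counted again among the macrophage markers below, and Apoe under lipid handling, so these lists are not separate results. The complement subunits C1qa (0.75 ± 0.07) and C1qb (0.66 ± 0.06), Apoe (0.71 ± 0.06) and Lgals9, the galectin that binds Havcr2 (0.33 ± 0.07), were among the higher, and Clu was lower (-0.41 ± 0.03). The call of Lgals9 was lost on the deposited scale, where it read 0.16.

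Genes of lipid handling after uptake fell in 13 of 16 cases at 4 h, with 0 higher, and in 9 cases at 2 h with 1 higher (0 on the deposited scale). Of all genes 16.7% were lower at 4 h and 19.4% at 2 h. At an unadjusted p below 0.05, 15 of the 16 passed at 4 h, as did 4772 of the 12791 genes. The lysosomal lipase Lipa fell by 1.06, Lpl by 0.83, Gpnmb by 0.72 and the cholesterol exporter Abca1 by 0.57. Averaged over the times 6 of 16 were higher on KO arrays, led by Lpl (1.03 ± 0.06, adjusted p = 1.2e-07), Apoe, Fabp4 (0.52 ± 0.07) and Gpnmb (0.46 ± 0.05). On the deposited scale 2 of them were called. Of all tested genes 6.21% were higher on KO arrays.

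Engulfment and signalling machinery was mixed, with 6 higher and 6 lower of 32 at 2 h (0 and 13 on the deposited scale) and 6 higher and 7 lower at 4 h (1 and 5). Of all tested genes 11.9% were higher and 19.4% lower at 2 h, and 11.8% and 16.7% at 4 h. Uvrag, an autophagy gene, fell by 0.96 at 4 h and Adam10, a sheddase, by 0.52, while Adam17, another sheddase, rose by 0.24. Tyrobp, the adaptor of Trem2, fell by 0.20 at 4 h. Neither Adam17 (0.07) nor Tyrobp (-0.26) was called at 4 h on the deposited scale. Tyrobp gave 0.01 between genotypes (adjusted p = 0.96). In that comparison 3 were higher and 3 lower, with Elmo1 at 0.40 ± 0.07 and Rhoa at -0.22 ± 0.04. Deposited-scale values gave 0 higher and 2 lower, and Elmo1 (0.24) was not called. Of all tested genes 6.21% were higher and 4.28% lower between genotypes. Signals that restrain engulfment were higher in 3 of 7 cases and lower in none at 2 h (Sirpa by 1.12, Siglecg by 1.14 and Ptpn11 by 0.84). At 4 h 4 were higher and 2 lower (1 and 1 on the deposited scale). Between genotypes 3 were higher, and 0 on the deposited scale.

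Transcription factors listed as regulators of these receptors gave 8 higher and 7 lower of 22 at 2 h and 4 and 5 at 4 h. The 2 h counts became 3 and 11 on the deposited scale, which turned the balance. Of all tested genes 11.9% were higher and 19.4% lower at 2 h, and 11.8% and 16.7% at 4 h. Irf4 rose by 2.29 at 2 h, and Spi1 fell by 0.51 at 2 h and by 0.56 at 4 h. Maf fell by 0.65 at 2 h, and the sterol receptor Nr1h3 gave -0.22 (adjusted p = 0.14). On KO arrays 5 were higher and 1 lower (0 and 2 on the deposited scale), against 6.21% and 4.28% of all tested genes. Batf3 was higher by 0.44 ± 0.05 and Egr2 by 0.55 ± 0.08, Klf4 was lower (-0.30 ± 0.06), and Nr1h3 gave 0.25 ± 0.09 (SE, adjusted p = 0.094).

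Most markers of macrophages and monocytes were higher on KO arrays, as were several but not all of the receptors. Of 15 tested, 12 were higher on KO arrays and 1, Timd4, was lower, with a median of 0.50 against 0.03 for all genes. Ccr2 (0.09) and Cd14 (-0.11), which mark monocytes among other cells, were not called. Among all tested genes 6.21% were higher and 4.28% lower. Lyz2 was higher by 0.95 ± 0.05, C1qa by 0.75 ± 0.07, C1qb by 0.66 ± 0.06 and Csf1r by 0.49 ± 0.05 (SE, all with adjusted p at most 1.8e-05). With deposited-scale values 5 were higher and 1 lower, and Csf1r (0.29) was not called. Without WT 2 h B, WT 4 h A or KO 0 h B the call of Timd4 was lost and 0 were lower. Their summed signal, over 17 measured markers, ran from 3319 to 4116 on WT and from 4970 to 6260 on KO arrays, without overlap. Siglec1 and Vsig4, markers of tissue macrophages, were the only measured markers of this list below the filter, and Cd163 was below it too. Adgre1 (0.69), Lyve1 (0.57) and Folr2 (0.56) of the same list were above it and called higher on KO arrays. On the deposited scale Lyve1 and Folr2 were not called. The part of macrophage-like RNA in the receptor differences was not tested.

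With time, 10 of the 15 macrophage markers were lower at 4 h and 3 higher, with a median of -0.48. Of all tested genes 16.7% were lower and 11.8% higher at 4 h. Csf1r fell by 1.21 and Lyz2 by 0.55, while Vcam1 rose by 1.01 and Cd14 by 0.98. These changes accompanied the falls of Cd36 and Havcr2, and their part in them was not tested either.

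Markers of other cell types were compared between the genotypes in the same way, where 6.21% of all tested genes were higher and 4.28% lower. Lists with a single called gene are not read as a result. Endothelial markers were higher on KO arrays in 5 of 13 cases, among them Cdh5 (0.33), Plvap (0.29) and Lyve1 (0.57), with overlapping summed signals (1335 to 1945 on WT and 1489 to 2168 on KO arrays). Prox1, which defines lymphatic endothelium, was below the filter, unlike the other endothelial markers measured. Stromal markers had 1 of 10 higher (Pdpn, 0.75), and their sums did not overlap (715 to 833 on WT and 890 to 1067 on KO arrays). Pdpn was also the only 1 of the 10 with an unadjusted p below 0.05 (limma). The median of the list was 0.09 against 0.03 for all genes. A sum can follow a single gene, so no rise of the stromal list is read from it. Markers of cDC1 cells, a subset known to carry Havcr2, were higher in 4 of 10 cases, with sums of 3396 to 4433 and 4211 to 5174. cDC2 markers gave 3 higher and 1 lower of 7, and migratory dendritic cell markers 1 higher and 3 lower of 9. Plasmacytoid markers gave 1 higher and 2 lower of 6, and dendritic cell markers 3 higher and 1 lower of 12. B cell markers gave 1 higher of 7, T cell markers 1 higher and 2 lower of 10, and NK cell markers 1 higher of 7. Neutrophil markers had 0 of 7 called and 0 of 7 at an unadjusted p below 0.05. On the deposited scale 0 endothelial, cDC1, cDC2 and dendritic cell markers were higher on KO arrays, and Pdpn still was. The part of these cells in the receptor differences was not tested.

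**Figure D4:**
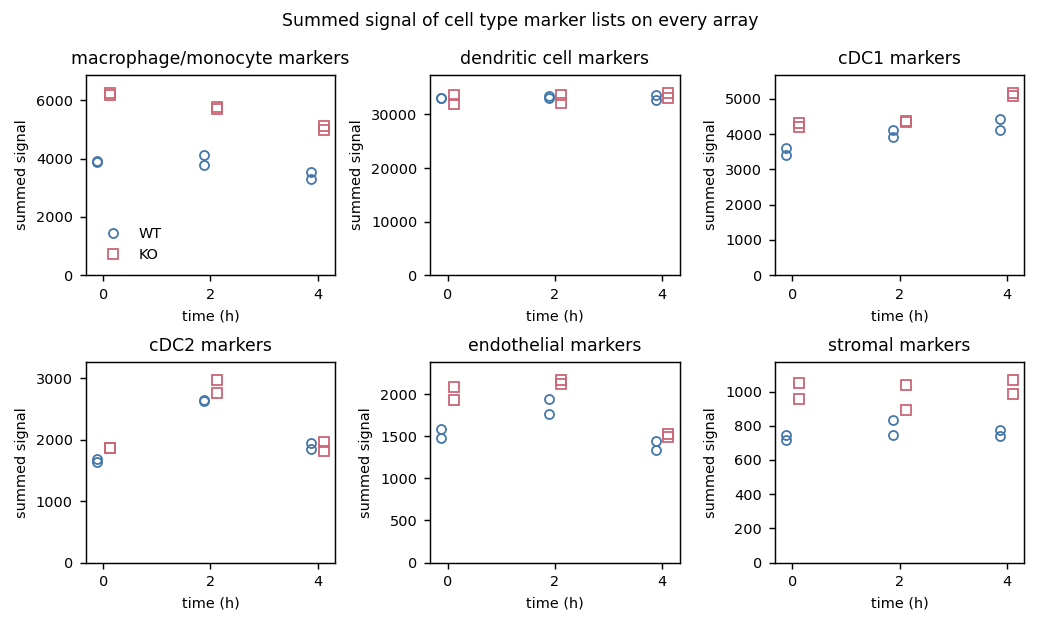
Summed normalised signal (linear scale from 0) of 6 marker lists on each array against time in hours, with WT arrays as circles and KO arrays as squares. Macrophage and monocyte markers lie between 3319 and 4116 on WT arrays and between 4970 and 6260 on KO arrays. Dendritic cell markers lie between 31900 and 34029 on all 12. A sum follows its brightest genes, and quantile normalisation draws the brightest signals together.

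Across the 12 arrays, the 5 genes outside the set whose log2 values followed those of Marco most closely, of 12783 compared, were Pmp22 (Pearson r = 0.98), Tgm2 (0.963), Tmem18 (0.949), Tnfrsf18 (0.947) and Il33 (0.945). The arrays share genotype, time and scaling, so these values describe likeness of pattern. Pmp22 encodes a myelin membrane protein, Tgm2 a transglutaminase, Tnfrsf18 the receptor GITR and Il33 an alarmin cytokine. Pmp22 went from 6.01, 6.34 and 6.18 on WT arrays at 0, 2 and 4 h to 7.18, 7.34 and 7.11 on KO arrays, a mean difference of 1.03 in log2(signal + 16). Tgm2 differed by 0.57, Tmem18 by 0.49, Il33 by 0.44 and Tnfrsf18 by 0.41. Among the members, Axl followed Marco most closely (r = 0.82), and Cd36 gave r = -0.05.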

How the data were processed

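RNA of cultured dendritic cells was hybridised to 12 Affymetrix mouse arrays. The deposited values are linear intensity signals of single probe sets, made with MAS5 per the submitters' processing notes, with version, scaling target and detection calls not given in the sources used here. Trimmed means (2%) differed 1.79-fold between arrays, so the values were quantile-normalised and tested as log2(signal + 16), a scale on which folds of dim genes are understated. Probe sets with 1 gene symbol were named (34958 of 45101, with 932 having several and 9211 none). Of these, 34754 matched a RefSeq gene table (GRCm38.p6), and 64 control probe sets were left out. The probe set with the highest mean stood for a gene. Genes under the 40th percentile were not tested.

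One limma 3.58.1 model (R 4.3.3; lmFit, eBayes with trend) of 6 group means was fitted to 12791 genes, with two-sided tests, p-values adjusted by Benjamini-Hochberg within a comparison, and a threshold of 0.05. Errors are standard errors unless given as SD. The tests of change with time and of differences of responses were checked on simulated data, and KO minus WT was not. Noise was drawn independently for each array there, so the check says nothing on arrays that share an animal or culture. Compared were the responses from 0 h to 2 h or 4 h, in either genotype and averaged over both, 4 h against 2 h, the differences of the responses, and KO minus WT. In this balanced design the time comparisons are arithmetically independent of the averaged KO minus WT difference, by which the members were chosen. The members, lists and tests were chosen with earlier results of these data known. Genes named are all members, Mapk14, partners and ligands of members fixed by role, the 5 genes most like Marco, and up to 4 called genes with the smallest p of a list. Some defining markers, below or above the filter, were added after their values were seen. Promoter windows come from RefSeq (GRCm38.p6). Msr1 was not among them. The number of arrays limits the precision. Alternatives covered scaling, pseudocount, filter, probe set choice, variance model, replicate block and each array left out.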

Additional observations from a re-analysis of the deposited data

How the results depend on the processing

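Under 12 alternatives and with each of the 12 arrays left out in turn, the averaged 2 h count of called members was 5 and ranged from 3 to 5 without 1 array, and the 4 h count was 3 (2 to 3). For 2 to 4 h the count of 1 ranged from 0 to 2 and was 0 with no filter. The WT count at 2 h was 2 (0 to 2 without 1 array). It was 4 on the deposited scale, 1 with no filter, with eBayes without trend or with only the groups compared in the fit, and 0 when probe sets were averaged. The WT count at 4 h was 3 (0 to 3), with 0 on the deposited scale and 1 for averaged probe sets. The KO count at 2 h was 3 (1 to 3), with 1 under no filter, and at 4 h it was 2 (1 to 2). The difference of responses had 0 members called in every run. The cause of these changes was not tested, apart from the fewer arrays or more genes of some runs.

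The averaged Marco difference of 1.08 was 0.94 on the deposited scale, 1.35 with a pseudocount of 1, 0.68 with a pseudocount of 64 0.93 for averaged probe sets, and 1.04 to 1.13 without 1 array. The 0 h difference of Cd36 turned to -0.15 with probe sets without suffixes, and the 2 h difference of Trem2 ranged from 0 to 0.84 without 1 array. With the replicate block the counts of called members were 5 at 2 h and 3 at 4 h on average, and Havcr2 was then also called in WT cells at 4 h (adjusted p = 0.028) and in KO cells at 2 h (adjusted p = 0.031). Deviations of arrays with the same letter correlated between -0.04 and 0.1 over 15 pairs of groups. With 2 arrays a group such low values cannot exclude that arrays of a letter share an animal or culture. Trem2, Mrc1 and Cd163 had low signals, near or below the filter level of 10.6, so small differences in them are read with caution. Array background was not measured.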

Other observations

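Within each genotype the members' time courses formed different shapes. With each gene centred on its mean in either genotype, Cd36 and Havcr2 followed each other over the 12 arrays (r = 0.91), and so did Msr1 and Mertk (r = 0.87). Cd36 and Havcr2 were lower at 4 h than at 0 h, whereas Msr1 and Mertk were lowest at 2 h. Axl ran against Cd36 (r = -0.62) and Havcr2 (r = -0.58), and Marco against Mertk (r = -0.64). The arrays share time points and scaling, so these are descriptions of likeness and no test.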
